A study of Mus musculus with 60 samples.

Results

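Anti-HA CUT&RUN peaks of cells expressing the H3R8C mutant histone were compared with those of cells expressing H3WT, the wild-type transgene. The 6 samples labelled with anti-HA and either genotype were taken, of 60 samples in the series, which crossed 5 genotypes with 4 antibodies and 3 labelled replicates. Every sample came from C3H 10T1/2 cells (Clone 8), a mouse mesenchymal progenitor line, transduced with a lentivirus that drove human H3C2 cDNA from the EF1 promoter and was selected with puromycin. The encoded H3.1 histone carried C-terminal HA and FLAG tags in both groups, and in H3R8C the arginine at position 8 was replaced by cysteine. The cells of both genotypes kept their own untagged histone H3, so the tag reports where an added pool of H3 sat. In each genotype the lists of replicates 1 and 2 held identical values, although the read totals given for them by the study differ, and such a pair was counted as 1 library. That left 2 independent libraries a genotype, H3WT replicates 1 and 2, H3WT replicate 3, H3R8C replicates 1 and 2 and H3R8C replicate 3, with 147519 peaks of the 450234 in all 10 independent anti-HA lists of the series.

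Histone H3.1 is laid down mainly behind the replication fork by the chaperone complex CAF-1, so a tagged H3.1 is built into chromatin genome-wide in cycling cells rather than at chosen sites. Arginine 8 lies on the H3 tail next to lysine 9, the residue whose methylation marks heterochromatin, and it is a substrate of protein arginine methyltransferases such as PRMT5. In CUT&RUN an antibody tethers a nuclease to its target, and the DNA it releases is sequenced, so an anti-HA list records where the tagged histone was found together with where chromatin was easy to reach and cut.

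The lists themselves differed in kind before any gene was looked at. H3WT replicates 1 and 2 held 15344 peaks with a median width of 10.7 kb, H3WT replicate 3 held 37907 with a median of 2.65 kb, H3R8C replicates 1 and 2 held 46398 with a median of 1.6 kb, and H3R8C replicate 3 held 47870 with a median of 0.9 kb. The H3WT list of replicates 1 and 2 stood apart from every other anti-HA list, since the 6 lists of the H3R2C, H3R17C and H3R26C mutants had medians of 0.8 to 1.45 kb. A peak's total signal, the sum of its coverage, had to reach a floor that differed in the same order: the lowest totals were 43200 in H3WT replicates 1 and 2, 6300 in H3WT replicate 3, 3250 in H3R8C replicates 1 and 2 and 1600 in H3R8C replicate 3. The floor, the width and the genotype moved together, and their parts in the results that follow cannot be told apart in these libraries. The lists hold no read counts, so the depth behind a peak cannot be read from them. The read totals that the study states for its samples differ between the genotypes and were not used here, since identical lists cannot be tied to either of their totals, and the part of depth in the results was not tested. In bulk lists fewer tagged cells and less tagged histone per cell cannot be told apart either. The labelled cell type could not be checked, because peak lists hold no expression.

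Wild-type peaks covered more of the genome than H3R8C peaks. Bases under peaks came to 213 Mb in H3WT replicates 1 and 2 and 135 Mb in H3WT replicate 3, against 93.4 Mb in H3R8C replicates 1 and 2 and 50.02 Mb in H3R8C replicate 3. The groups did not overlap, with means of 174 Mb ± 55.7 for H3WT and 71.7 Mb ± 30.6 for H3R8C (SD, n = 2 libraries each). With 2 libraries against 2, the exact two-sided permutation test gave p = 0.333, which is the smallest value it can give, so no difference of 2 such groups can pass a threshold of 0.05. The difference, H3R8C minus H3WT, was -102 Mb with all libraries, -62.9 Mb when H3WT replicates 1 and 2 were dropped and -142 Mb when H3WT replicate 3 was. The 6 lists of the other mutants covered 42.9 to 84.4 Mb, a range that held H3R8C replicate 3 and lay below H3R8C replicates 1 and 2. Wide peaks were listed mainly in H3WT, where 8854 peaks of replicates 1 and 2 and 1202 of replicate 3 were 10 kb or wider, compared with 224 of H3R8C replicates 1 and 2 and 7 of H3R8C replicate 3.

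**Figure D1:**
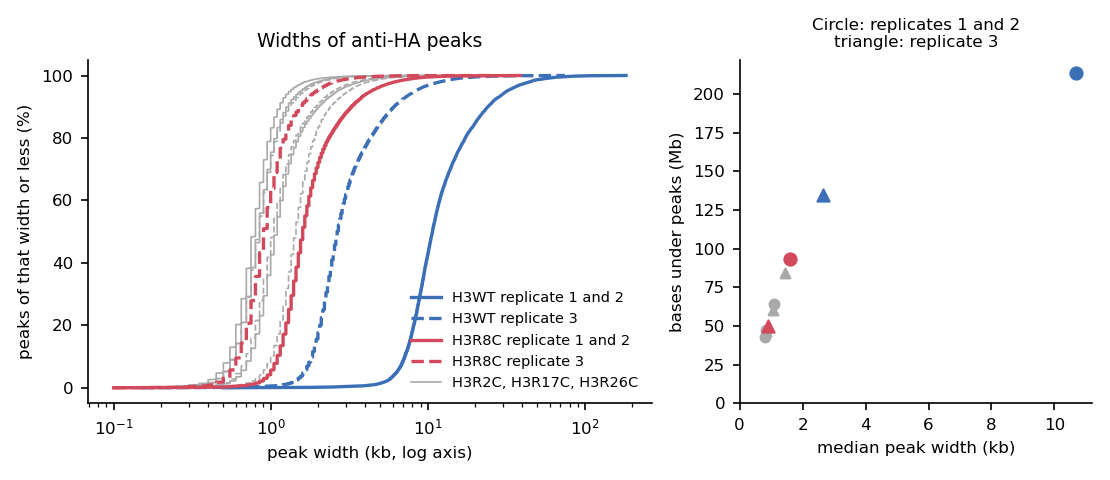
Left, share of each anti-HA list's peaks (vertical axis, percent) at or under a given width (horizontal axis, kb, log scale); solid lines are replicates 1 and 2 and dashed lines replicate 3, with H3WT in blue, H3R8C in red and the other mutants in grey. Right, median width in kb against bases under peaks in Mb, 1 point a list. The H3WT list of replicates 1 and 2, at 10.7 kb and 213 Mb, lies far from all others, and both H3R8C lists lie at or near the other mutants.

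Among regions with a peak in all 4 lists, the strongest fell on satellite DNA. Only such regions were ranked, by mean scaled signal (total signal divided by the library's median over regions where all libraries had a peak). The first 5 lay on chromosomes 2, 14, 12, 9 and 9. The 50 bases of highest signal in each are shown because the same 50-base interval was the maximum in all 4 lists at 4 of the 5 sites, and in 3 of the lists at the fourth, whatever the genotype. They were read from GRCm38.p6, the RefSeq assembly that matches the mm10 build of the files, on the plus strand, and capitals mark runs of 12 or more bases shared with another of the 5 sites on either strand.
chr2:98667101-98667150: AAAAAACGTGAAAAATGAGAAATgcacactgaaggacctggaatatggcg
chr14:19417301-19417350: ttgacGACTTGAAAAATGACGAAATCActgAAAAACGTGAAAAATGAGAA
chr12:3109901-3109950: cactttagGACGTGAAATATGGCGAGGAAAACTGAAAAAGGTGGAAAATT
chr9:3000951-3001000: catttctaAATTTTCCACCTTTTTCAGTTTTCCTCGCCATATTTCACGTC
chr9:35305401-35305450: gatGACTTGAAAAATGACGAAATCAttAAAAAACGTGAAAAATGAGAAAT
Each interval was soft-masked as repeat over 100% of its length. The runs belong to the mouse major satellite, the tandem repeat of pericentromeric heterochromatin, of which the assembly holds only scattered copies, so that reads of many real copies pile up on a few.

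At the chromosome 2 site, which overlaps the predicted genes Gm10800 and Gm10801, the maximum signal was 1730260 in H3WT replicates 1 and 2, 842809 in H3WT replicate 3, 569759 in H3R8C replicates 1 and 2 and 241402 in H3R8C replicate 3. On the scaled measure the order turned, with 5351 and 8788 in the H3WT libraries and 11683 and 12617 in the H3R8C libraries. The same turn was seen at the chromosome 14 site over Gm21738, where scaled signal was 2481 and 3940 in H3WT and 5232 and 5895 in H3R8C. Neither site passed the test described further on. The 5 strongest peaks of a list held 39.2% of its summed signal in H3WT replicates 1 and 2, 45.6% in H3WT replicate 3, 49.5% in H3R8C replicates 1 and 2 and 47.3% in H3R8C replicate 3, and 48.6% to 60.5% in the other mutants.

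A smaller share of H3R8C peaks than of H3WT peaks overlapped a transcription start site. A start site was taken as any GENCODE transcript start with 1000 bp on either side, and such windows make up 5.88% of the genome. The share of all peaks that overlapped one was 44.2% in H3WT replicates 1 and 2 and 24.2% in H3WT replicate 3, against 18.2% in H3R8C replicates 1 and 2 and 13.7% in H3R8C replicate 3. The groups did not overlap, with means of 34.2% ± 14.1 and 15.9% ± 3.17 (SD, n = 2; exact permutation test, p = 0.333, the smallest it can give). Over the same number of top peaks by total signal, 15344 a list as set by the shortest, the shares were 44.2%, 31.6%, 23.6% and 15.2% in the same order of libraries. Their means were 37.9% ± 8.96 for H3WT and 19.4% ± 5.95 for H3R8C (SD, n = 2; exact permutation test, p = 0.333). The difference, H3R8C minus H3WT, was -18.3 percentage points over all peaks and -18.5 over top peaks. Without H3WT replicates 1 and 2 these values were -8.31 and -12.2, and with H3WT replicate 3 dropped they were -28.3 and -24.9.

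The order of these shares was the order of the median widths. When a peak was placed by the centre of its interval of maximum signal instead of by any overlap, the start-site share of all peaks was 9.97% and 11.5% in the H3WT libraries and 10.5% and 9.61% in the H3R8C libraries. The groups then overlapped, at 10.7% ± 1.06 for H3WT and 10.1% ± 0.633 for H3R8C (SD, n = 2; exact permutation test, p = 0.667). Over top peaks the maxima gave 9.97%, 12.2%, 11.1% and 9.37%, again with overlapping groups. In every list the maxima lay in start-site windows more often than the windows' share of the genome, and the median maximum lay 8.97 kb from the nearest start in H3WT replicates 1 and 2, 7.73 kb in H3WT replicate 3, 8.20 kb in H3R8C replicates 1 and 2 and 8.20 kb in H3R8C replicate 3. A peak that spanned 2 or more start sites was common only in the wide list: 22.6% of peaks did so in H3WT replicates 1 and 2, 7.64% in H3WT replicate 3, 4.14% in H3R8C replicates 1 and 2 and 1.59% in H3R8C replicate 3.

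The gene-body share changed direction with the rule, and the intergenic share did not. By overlap, the share of all peaks over a gene but no start site was 29.0% and 41.2% in H3WT and 41.6% and 42.9% in H3R8C, and the share touching neither was 26.8% and 34.5% in H3WT and 40.2% and 43.4% in H3R8C. The means of the second share were 30.7% ± 5.47 and 41.8% ± 2.21 (SD, n = 2; exact permutation test, p = 0.333), and over top peaks 29.4% ± 3.75 and 41.2% ± 4.39. By maxima, the gene-body share turned round, with 49.6% and 49.0% in H3WT against 46.0% and 45.3% in H3R8C, groups that did not overlap and whose means differed by -3.63 percentage points, H3R8C minus H3WT. The intergenic share stayed higher in H3R8C by maxima, at 43.5% and 45.1% against 40.4% and 39.6% in H3WT, a difference of 4.30 points (exact permutation test of 2 libraries against 2, p = 0.333). Of the start-site, gene-body and intergenic shares, the intergenic share was the one whose groups were separate, and in the same order, both by overlap and by maxima and over both all peaks and top peaks. The maxima of the 6 other mutant lists were intergenic in 40.2% to 46.0% of cases, a range that takes in both H3R8C libraries and 1 of the H3WT libraries.

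Against the other mutants, the H3R8C start-site share was not distinguishable. The 6 lists of H3R2C, H3R17C and H3R26C had shares of 12.4% to 19.8% over all peaks (mean 15.8% ± 2.71, SD), and H3R8C was higher by 0.139 percentage points (exact permutation test of 2 libraries against 6, two-sided, p = 0.929). Over top peaks the other mutants reached 14.2% to 26.6%, and the difference was -0.0739 points (exact permutation test, p = 1). This test could have gone as low as 0.0357.

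**Figure D2:**
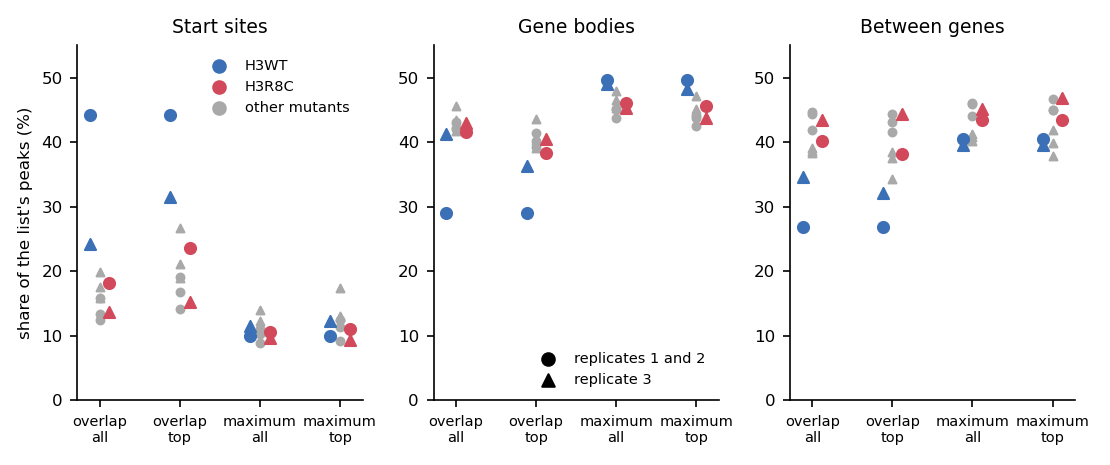
Share of each list's peaks, in percent, that lay at start sites (left), over gene bodies (middle) or between genes (right), by any overlap or by the position of the maximum, for all peaks and for the 15344 top peaks. Blue points are H3WT, red H3R8C and grey the other mutants, with circles for replicates 1 and 2 and triangles for replicate 3. The wide gap between blue and red at start sites by overlap closes by the position of the maximum, where all 4 libraries lie between 9.37% and 12.2%.

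Nearly all peaks were on autosomes in both genotypes. The autosome share of all peaks was 97.9% and 97.7% in H3WT and 96.8% and 97.2% in H3R8C, against 90.4% of the genome's length. The means, 97.8% ± 0.132 and 97.0% ± 0.281 (SD, n = 2), differed by -0.805 percentage points, H3R8C minus H3WT (exact permutation test, p = 0.333), and over top peaks by -0.332 points. The X chromosome made up most of the difference, with 2.09% and 2.25% of H3WT peaks and 3.16% and 2.74% of H3R8C peaks. Over top peaks the X shares were 2.09% and 1.603% in H3WT and 2.24% and 1.96% in H3R8C, so that the groups overlapped.

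Among single chromosomes, chromosome 13 showed the widest relative gap. It held 4.13% and 3.78% of H3WT peaks but 2.03% and 2.39% of H3R8C peaks, a ratio of group means of 0.559, beside 4.42% of the genome's length. Over top peaks it held 4.13% and 3.21% in H3WT and 1.64% and 2.06% in H3R8C. The groups were separate on 13 of 21 chromosomes, which is 61.9%, so separation alone singles out no chromosome. The gap ran along the whole of chromosome 13: between 40 and 60 Mb it held 9.58 and 9.50 of every 1000 H3WT peaks and 4.16 and 4.49 of every 1000 H3R8C peaks, and between 100 and 120 Mb 9.06 and 8.65 against 5.22 and 5.62. The other mutants had 1.05% to 3.26% of their peaks there, all below both H3WT lists, so the gap was not particular to H3R8C. Peaks of another antibody moved the same way, since chromosome 13 held 3.55% and 3.77% of the anti-H3K27me3 peaks of H3WT and 2.64% and 2.81% of those of H3R8C. The part of this chromosome-wide difference in the results for single regions there was not tested. The start-site shares did not turn on it: without chromosome 13, a setting added after the data were seen, their differences were -18.5 points over all peaks and -18.7 over top peaks.

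Chromosomes 11 and 15 were rich in peaks in every list and richer in H3R8C. Chromosome 11 held 8.69% and 9.99% of H3WT peaks and 11.3% and 12.1% of H3R8C peaks, and chromosome 15 held 8.22% and 7.86% against 9.97% and 8.58%. The other mutants ran from 8.88% to 14.5% on chromosome 11 and from 8.81% to 16.0% on chromosome 15, and so reached above H3R8C on both.

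**Figure D3:**
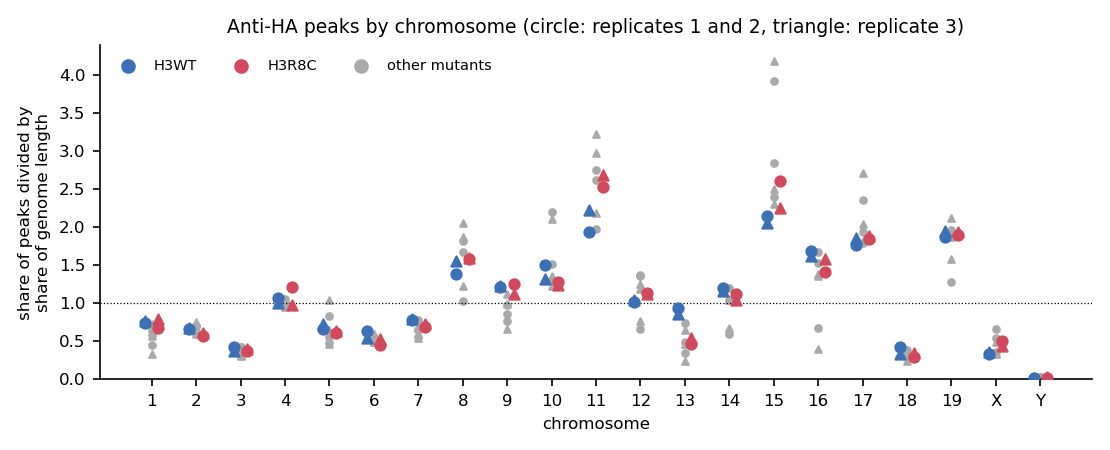
Share of a list's peaks on each chromosome divided by that chromosome's share of genome length (vertical axis, ratio; the dotted line marks 1), for H3WT in blue, H3R8C in red and the other mutants in grey. On chromosome 13 both H3R8C libraries, at 2.03% and 2.39% of peaks, lie below both H3WT libraries, at 4.13% and 3.78%, within the spread of the other mutants.

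When all peaks were laid over each other, both H3WT libraries and H3R8C replicate 3 shared most with the library of their own genotype. H3R8C replicates 1 and 2 did not. The Jaccard index, the bases shared by a pair of lists over the bases in either, was 0.296 for the H3WT pair and 0.194 for the H3R8C pair. H3R8C replicates 1 and 2 shared more with H3WT replicate 3 (0.275) than with the other H3R8C library, and H3R26C replicates 1 and 2 shared 0.220 with it. H3R8C replicate 3 shared 0.181 with H3WT replicate 3, 0.128 with H3WT replicates 1 and 2 and 0.187 with H3R26C replicates 1 and 2. Over top peaks only H3WT replicates 1 and 2 shared most with the library of its own genotype, at 0.254. There H3WT replicate 3 shared more with H3R8C replicates 1 and 2 (0.298). H3R8C replicate 3 shared 0.212 with the other H3R8C library and 0.215 with H3R26C replicates 1 and 2. Much of the H3R8C signal lay inside the wide H3WT peaks: 49.5% of the maxima of H3R8C replicates 1 and 2 and 55.4% of those of H3R8C replicate 3 fell in peaks of H3WT replicates 1 and 2, which cover 7.83% of the genome. In turn 34.1% of the peaks of that H3WT list held 2 or more maxima of H3R8C replicates 1 and 2, up to 29 in 1 peak, while 38.5% held none.

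GC content at the maxima overlapped between the genotypes, while the repeat-masked share was slightly higher in both H3R8C libraries. In the 250 bases on either side of a maximum the median GC content was 45.2% and 47.0% in H3WT and 46.0% and 45.4% in H3R8C, above the genome's 41.4%. Repeat-masked sequence made up 21.8% and 20.9% of those windows in H3WT and 22.4% and 23.2% in H3R8C, against 36.4% of the genome, so that the maxima held less annotated repeat than the genome at large.

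Peaks of both genotypes met H3K27me3, the mark of Polycomb-silenced chromatin, more often than the genome at large. The maxima of H3WT replicates 1 and 2 fell in anti-H3K27me3 peaks of the same genotype in 7.33% and 7.86% of cases, by the H3K27me3 list used, and those of H3WT replicate 3 in 6.51% and 7.46%. The maxima of H3R8C replicates 1 and 2 did so in 5.36% and 5.99% of cases and those of H3R8C replicate 3 in 4.75% and 5.25%. All H3R8C values lay below all H3WT values, while the H3K27me3 lists covered 3.80% and 3.62% of the genome in H3WT and 3.56% and 3.98% in H3R8C. Each HA library was set against the same pair of lists, so these are not independent values and no test was made.

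Fewer genes had a recurrent start-site peak in H3R8C, and the order depended on how a peak was assigned. Of 21911 protein-coding genes, 5033 and 4957 had a peak overlapping a start window in the H3WT libraries, and 4184 and 3037 in the H3R8C libraries. Both H3WT libraries had one at 3299 genes and both H3R8C libraries at 2133. The 1614 genes with a peak in every library were 48.9% of the first set and 75.7% of the second. A peak in both H3WT libraries and neither H3R8C library was found at 635 genes (2.9%), and the reverse at 127 genes (0.58%). Over top peaks these counts were 899 (4.1%) and 18 (0.0822%). When the maximum itself had to lie in the window, an alternative added after the data were seen, the counts turned round to 93 for H3WT and 410 for H3R8C over all peaks, and stood at 140 and 120 over top peaks. The direction for start-site genes therefore hung on the rule. The counts also hung on single libraries, since a call in the 1 library left then sufficed: genes called in H3WT alone numbered 1477 when H3WT replicates 1 and 2 were dropped, 1796 for H3WT replicate 3, 1420 for H3R8C replicates 1 and 2 and 900 for H3R8C replicate 3, and genes called in H3R8C alone 248, 398, 444 and 718. Over top peaks the first set numbered 1266, 3183, 1509 and 1048 and the second 67, 60, 104 and 179. Chromosome 13 held 20 of the 635 genes (3.15%) and 0 of the 127, beside 836 of all genes (3.82%).

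**Figure D4:**
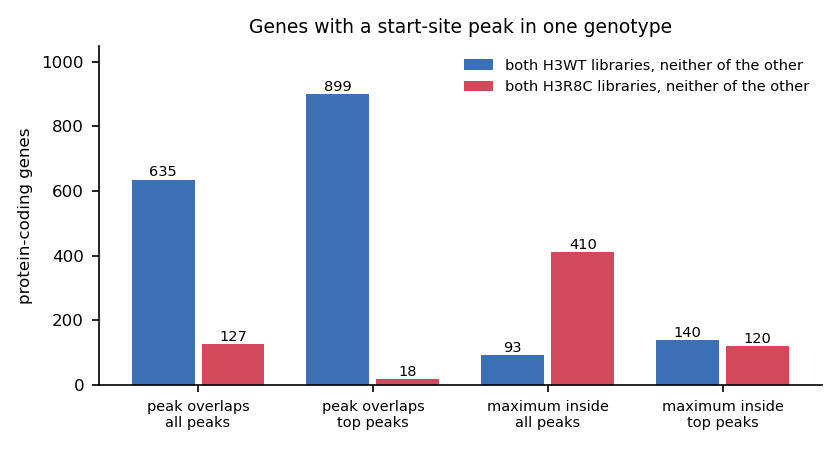
Number of protein-coding genes (vertical axis) with a start-site peak in both libraries of one genotype and neither of the other, for H3WT in blue and H3R8C in red, by overlap and by the position of the maximum, over all peaks and over top peaks. Overlap gives 635 against 127 and 899 against 18, and maxima give 93 against 410 and 140 against 120.

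The named genes show what such calls were made of. Genes called in H3WT alone lay under wide, strong peaks, led by Il17c, an epithelial cytokine, with total signals of 585400 and 163500 in peaks 67.8 and 35.1 kb wide. Gdf1, a TGF-beta family growth factor, followed with 194000 and 157900, and Lsm7, a subunit of the ring that binds U6 RNA, with 407900 and 79100. H3R8C peaks lay near these genes, the nearest being 1.33 and 3.18 kb from the Il17c start, 1.07 and 3.98 kb from that of Gdf1 and 1.64 and 2.71 kb from that of Lsm7, outside the windows, and none lay over Gdf1 or Lsm7 itself. The others by the same rule were Kcnj4, a potassium channel, Myrf, the regulator of myelin genes, Slc16a11, B830017H08Rik and Peli3, with lower totals of 51700 to 67050. Over the whole gene, scaled signal per kb overlapped between the genotypes at Kcnj4 and Myrf. At Slc16a11, B830017H08Rik and Peli3 it was lower in H3R8C. The other mutants also had start-site peaks, in 5 lists for Myrf, B830017H08Rik and Peli3 and 4 for Slc16a11. Such peaks were in 3 lists for Il17c, Gdf1 and Kcnj4 and in 2 for Lsm7. Over top peaks the rule added Ppp1ca, a catalytic subunit of protein phosphatase 1, and 2310007B03Rik. It also added Itpr3, a calcium channel of the endoplasmic reticulum, and Bsg, the surface protein basigin. Over 2310007B03Rik the scaled signal per kb of all peaks was 4.00 and 3.60 in H3R8C, above the 2.26 and 3.16 of H3WT. The groups overlapped at Itpr3, and H3R8C lay below H3WT at Ppp1ca and Bsg.

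Genes called in H3R8C alone carried small peaks. Dhx40, an RNA helicase, led with total signals of 5600 and 4450 in peaks 1.75 and 1.90 kb wide, and the call rested on the window of another of its transcripts, since from the start of the gene as annotated those peaks lay 2.50 and 2.70 kb away and the nearest H3WT peaks 9.25 and 1.80 kb. Gm11437 had 4000 and 4800, with the nearest H3WT peaks 6.42 and 1.12 kb away. Bst1 and Fbxl5, an enzyme of NAD metabolism and an iron-sensing ubiquitin ligase subunit, shared 1 pair of peaks of 4400 and 3750, and Sf1, a splicing factor, had 5650 and 3200. Ccl9, a chemokine, Acox3, an enzyme of peroxisomal fat oxidation, and Ddx23, a spliceosomal helicase, completed the list with lower totals of 2850 to 3050. Over top peaks Msrb1, Hils1, Btbd35f25 and Akap6 were added. Among all its peaks, H3WT replicate 3 had one over the start of Msrb1, Hils1 and Akap6 and one 0.994 kb from that of Btbd35f25. Their calls thus rested on the cut to top peaks, not on the absence of an H3WT peak. Each gene named in this paragraph had a total below 6300 in at least 1 H3R8C library. That value was the lowest that H3WT replicate 3 held at all, although totals of different lists are not on 1 scale. Start-site peaks at these genes were also found in the other mutants, in 5 of 6 lists for Dhx40 and in 4 of 6 for Gm11437, and in 0 of 6 for Acox3.

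Promoter sequences of a pair of genes from each set are shown because they are among the first 3 of their sets by signal and differ widely in CpG content. They are the 250 bases before the start in RefSeq (GRCm38.p6), on the gene's strand, with CG in capitals. Where a gene had several starts, the one with most CG was taken, here and for the percentages of genes below. The start shown need not be the one whose window held the peak. The first pair is from the H3WT set and the second from the H3R8C set.
Il17c, chr8:122421770-122422019, plus strand: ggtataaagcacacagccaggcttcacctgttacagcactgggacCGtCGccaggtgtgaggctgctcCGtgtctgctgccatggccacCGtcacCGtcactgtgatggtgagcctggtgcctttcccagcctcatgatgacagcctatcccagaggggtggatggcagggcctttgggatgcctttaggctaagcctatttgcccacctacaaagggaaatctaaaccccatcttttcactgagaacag
Lsm7, chr10:80855157-80855406, minus strand: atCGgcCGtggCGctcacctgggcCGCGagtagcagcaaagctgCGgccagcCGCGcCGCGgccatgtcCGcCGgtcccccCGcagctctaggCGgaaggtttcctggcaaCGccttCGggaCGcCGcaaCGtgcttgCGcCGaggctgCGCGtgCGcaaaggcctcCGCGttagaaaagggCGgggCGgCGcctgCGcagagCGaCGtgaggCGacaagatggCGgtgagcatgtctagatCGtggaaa
Dhx40, chr11:86807661-86807910, minus strand: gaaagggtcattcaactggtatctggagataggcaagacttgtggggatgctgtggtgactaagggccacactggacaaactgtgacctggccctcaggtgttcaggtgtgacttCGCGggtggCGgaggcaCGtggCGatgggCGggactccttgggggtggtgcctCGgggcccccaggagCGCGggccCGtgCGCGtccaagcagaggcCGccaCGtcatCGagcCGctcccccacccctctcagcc
Gm11437, chr11:84167477-84167726, minus strand: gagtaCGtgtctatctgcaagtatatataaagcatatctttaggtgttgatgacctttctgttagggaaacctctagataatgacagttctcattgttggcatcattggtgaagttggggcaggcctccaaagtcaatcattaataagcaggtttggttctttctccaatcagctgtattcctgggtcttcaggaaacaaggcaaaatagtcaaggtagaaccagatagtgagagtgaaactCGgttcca
Il17c held 5 CG, Lsm7 35, Dhx40 16 and Gm11437 2, and 57.6%, 3.40%, 27.6% and 81.7% of all genes with a promoter in the table held as many or more. Promoters were found for 482 of the 635 genes called in H3WT alone and 98 of the 127 called in H3R8C alone, below the share of matched genes required here for such a check, so a comparison of CG content between the sets is void and is not given.

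No gene passed the test of signal between the genotypes. Signal over each protein-coding gene and the 1000 bp before it was taken per kb of gene, scaled to the library's median over genes with a peak in every library, and compared with limma on log2(scaled signal + 0.25). Of 6565 genes that held a peak in both lists of at least 1 genotype, 0 fell and 0 rose past an adjusted p of 0.05 (0%; limma, Benjamini-Hochberg), and the smallest adjusted p was 0.110. At an unadjusted p under 0.05 there were 498 genes lower and 649 higher. The median log2 change was 0.03 with this scaling, -0.33 when lists were scaled by their total signal and -1.67 unscaled, so single changes hold only relative to that shift. Taking the highest peak maximum of a gene in place of its total signal gave 459 lower and 288 higher genes, and letting all 5 genotypes share the spread gave 36 lower and 15 higher. Leaving out a library, with the lone one assumed to vary like the other genotype, gave mostly lower genes when an H3WT library was dropped and mostly higher genes when an H3R8C library was. The counts were 1293 lower and 42 higher for H3WT replicates 1 and 2, 1136 and 82 for H3WT replicate 3, 11 and 849 for H3R8C replicates 1 and 2 and 9 and 1057 for H3R8C replicate 3.

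The genes nearest to a call all had an adjusted p of 0.110 (limma). On the lower side were Adm, the vasodilator peptide adrenomedullin, with scaled signals per kb of 2.17 and 2.86 in H3WT and no peak in H3R8C, and Lsm7, with 2.39 and 2.16 and no peak. Mrps7, a protein of the mitochondrial ribosome, Gpaa1, a subunit of the GPI transamidase, and Pabpn1l, a poly(A)-binding protein, made up the 5, each also without a peak in H3R8C. On the higher side were Gm13289, Gm13283 and Ifna1, an interferon alpha gene, all within 1 cluster on chromosome 4, with no peak in H3WT and 2.72 to 4.71 in H3R8C; the cluster holds near-identical copies, so the share of reads that belongs to each gene is uncertain. Tmem160 likewise had no peak in H3WT, with 3.12 and 4.43 in H3R8C. Slc39a4, a zinc importer of the gut, was the 1 gene of the 10 with signal in every library, at 1.27 and 1.08 in H3WT and 5.25 and 5.26 in H3R8C, a log2 change of 1.95 ± 0.27 (SE).

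Gene groups were read by how many members held a peak, beside 30.5%, 34.8%, 33.4% and 29.2% of all genes in H3WT replicates 1 and 2, H3WT replicate 3, H3R8C replicates 1 and 2 and H3R8C replicate 3. Among all genes, 450 (2.05%) held a peak in both H3WT libraries and neither H3R8C library, and 289 (1.32%) the reverse. No member of any list passed the test, as no gene did. Gene length was not adjusted for. None of the 67 replication-dependent histone genes had a peak in any of the 4 libraries. Ribosomal protein genes held peaks at 8, 9, 7 and 6 of 79, olfactory receptor genes at 35, 34, 37 and 24 of 1092 and vomeronasal receptor genes at 3, 4, 6 and 3 of 326. Zinc finger genes, many of which lie in H3K9-methylated clusters, held them at 67, 79, 91 and 79 of 391. Of the 70 zinc finger genes tested, 48 had a change above 0 and 22 below, with a median log2 change of 0.42 against 0.03 for all genes. Other lists had like values: the median was 0.40 for 27 olfactory receptor genes tested, 0.80 for 5 ribosomal protein genes, 0.47 for 5 cartilage genes, 0.48 for 4 bone genes and 0.40 for 6 chaperones and H3K9 factors. It was 0.47 for 2 vomeronasal receptor genes, 0.44 for 2 housekeeping genes, 0.30 for 4 arginine methyltransferases and 0.11 for 9 genes of other cell types, and below 0 for the rest, at -0.85 for 2 Hox genes, -0.12 for 3 fat genes, -0.10 for 2 muscle genes and -0.17 for 7 mesenchymal and matrix genes. Among zinc finger genes Zfp979 held the most signal per kb, at 3.24 and 3.37 in H3WT and 5.98 and 5.44 in H3R8C. Hox genes, which order the body axis, held peaks at 3, 7, 4 and 1 of 39, with Hoxc4 alone marked in every library.

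Lineage genes of a mesenchymal progenitor were marked in both genotypes at similar numbers. Of 10 cartilage genes 4, 5, 6 and 5 held a peak, of 10 bone genes 4, 5, 4 and 7, of 10 fat genes 4, 3, 4 and 3 and of 10 muscle genes 1, 3, 3 and 2. Sp7, the osterix transcription factor of bone, had scaled signals per kb of 2.92 and 3.63 in H3WT and 5.83 and 7.15 in H3R8C, with a log2 change of 0.94 ± 0.25 (SE) and an adjusted p of 0.15 (limma). Col2a1, the collagen of cartilage, had 1.98 and 2.28 against 3.88 and 2.37, and the H3R8C libraries differed from each other by more than the groups did. Adipoq, the fat hormone adiponectin, had 0.68 and 1.35 against 1.92 and 1.22, with overlapping groups. Markers of other cell types were no scarcer: of 15 genes of blood, epithelium, nerve and endothelium, 9, 9, 9 and 7 held a peak, led by Cdh1, the epithelial cadherin, at 2.03 and 2.14 against 4.196 and 5.23. Of 20 mesenchymal and matrix genes 8, 7, 7 and 8 held a peak. Among them Thy1, a mesenchymal progenitor marker, had no peak in H3WT and 1.12 and 2.26 in H3R8C. Its log2 change was 2.89 ± 0.58 (SE), with an adjusted p of 0.110 (limma). At Col6a1 and Pdgfrb the groups overlapped. Of 12 housekeeping genes 1, 3, 3 and 3 held a peak.

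The enzymes and carriers of the residue itself were also looked at. Of 20 histone H3 chaperones and H3K9 methylation factors 6, 9, 9 and 6 held a peak, and of 9 arginine methyltransferase genes 3, 4, 4 and 5. Kdm4b, a demethylase of H3K9, had 0.97 and 1.72 in H3WT and 0.93 and 1.35 in H3R8C, and Ehmt2, the H3K9 methyltransferase G9a, had 1.602 and 0.84 against 1.59 and 0.59. Prmt5, which methylates H3 arginine 8, had no peak in H3WT replicates 1 and 2, 0.33 in H3WT replicate 3 and 0.54 and 1.88 in H3R8C, with an adjusted p of 0.34 (limma). These values describe where tagged histone was found, not how far the genes were expressed.

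Called regions were mostly those with no peak at all in one genotype. Merging the 4 lists gave 57843 regions, of which 35225 (60.9%) had a peak in 1 library alone and 6460 (11.2%) in all 4. Of 15924 regions held by both lists of at least 1 genotype, 1282 fell (8.05%) and 2193 rose (13.8%) in H3R8C, together 21.8%, past an adjusted p of 0.05 (limma, Benjamini-Hochberg, on log2(scaled signal + 0.25)), with a median log2 change of 0.29 over all of them. Among the lower regions 1254 had no peak in either H3R8C library, and among the higher ones 2128 had none in either H3WT library. Where a genotype has no peak its values do not vary. Without the trend of the spread with level 0 regions passed in either direction by limma (1737 lower and 2527 higher at an unadjusted p under 0.05), and the same was true of unscaled signal (1658 and 2133) and of fixed bins of 10 kb (3229 and 2860). Calls over top peaks turned to 1646 lower and 513 higher. Leaving out a library gave 10473 lower and 164 higher regions when it was H3WT replicates 1 and 2, 4293 and 2664 for H3WT replicate 3, 111 and 12876 for H3R8C replicates 1 and 2 and 67 and 14537 for H3R8C replicate 3.

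The smallest adjusted p belonged to regions that each lay at or just above the floor of 1 list. The 3 lower ones were chr11:103794401-103802350 within Wnt3, a Wnt ligand gene, chr12:109355301-109362600, which is 90.2 kb from Dlk1, an imprinted inhibitor of fat cell formation, and chr8:25556601-25566000 over a start of Fgfr1, a fibroblast growth factor receptor. Their total signals were 43300, 43350 and 43300 in H3WT replicates 1 and 2, beside a floor of 43200, and 10350, 9800 and 11250 in H3WT replicate 3, above that list's median of 8950. The 3 higher ones, 74.6 kb from Rassf10, 287 kb from Cdh8 and 74.4 kb from Zfp366, each had 3800 in H3R8C replicates 1 and 2 and 1600 in H3R8C replicate 3, where 1600 is the floor.

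In a fit of the 6460 regions where all 4 lists had a peak, 16 fell (0.248%) and 7 rose (0.108%) in H3R8C, together 0.356% (limma, adjusted p up to 0.0487). Of these, 17 also passed in the fit of all 15924. In that wider fit 24 of the lower and 64 of the higher calls had a peak in every library, so there most such calls were higher. The balance of lower and higher therefore hung on which regions were fitted together. The 23 regions of the narrower fit were singled out after the values were seen, since no call in it can rest on an absent peak. The falls ran from 1.67 to 2.45 on the log2 scale and the rises from 1.46 to 1.75, and no region had overlapping groups. The lower regions were wide, with a median of 36.1 kb, against 16.7 kb for the higher ones and 14.6 kb for all 6460. A region is a merged stretch of peaks valued by summed signal. A wide H3WT peak therefore makes its region wide and its H3WT value high, so this contrast follows in part from the construction. All 23 kept their sign whichever library was left out. Without H3WT replicates 1 and 2 none of the 23 passed, while 16 did without H3WT replicate 3, 15 with H3R8C replicate 3 alone in its arm and 12 with H3R8C replicates 1 and 2 alone. With signal left unscaled the 16 stayed lower and 0 of the 7 stayed higher, beside a median of -1.599 for all 15924 regions on that scale. By maximum signal in the fit of all 15924, 14 of the 16 stayed lower and 5 of the 7 stayed higher, and 0 of the 23 passed. Without the trend of the spread with level all 23 kept their sign there, and 0 passed.

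The largest fall was at chr13:32737951-32794600, over the start of Mylk4, a myosin light chain kinase gene. Its scaled signal was 3.75 and 2.81 in H3WT and 0.53 and 0.27 in H3R8C, a log2 change of -2.45 ± 0.45 (SE, adjusted p = 0.000462, limma). In H3WT replicates 1 and 2 it was 1 unbroken peak of 56.6 kb and in H3WT replicate 3 it was 9 peaks covering 24.3 kb, while H3R8C peaks covered 3.1 and 0.7 kb. The H3K27me3 lists of H3WT covered 18.2% and 17.4% of it and those of H3R8C 0%. Chromosome 13, which was thin in H3R8C as a whole, held 4 of the 16 lower regions, the others being at Bicd2 and Ippk (3.75 and 3.29 against 0.47 and 1.03), 116 kb from Gas1 (2.63 and 2.82 against 0.76 and 0.30) and 63.8 kb from Ankrd55 (1.94 and 1.42 against 0.22 and 0.31). Over its 170 regions of this kind the median log2 change was -0.34, against 0.06 for all chromosomes together.

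Of the lower regions, 3 lay side by side next to Sox6, a transcription factor of cartilage formation, on chromosome 7. They were 33.1, 103 and 136 kb from the gene. At chr7:115405051-115437800 scaled signal was 2.32 and 2.33 in H3WT and 0.26 and 0.32 in H3R8C, a log2 change of -2.26 ± 0.47 (SE). The other mutants had 0 to 0.79 there, all below H3WT. At 12 of the 16 lower regions, Mylk4, Clec16a, Arnt2 and Tprg among them, all 6 other mutant lists lay below both H3WT libraries. At 2 of the 7 higher regions all 6 lay above both H3WT libraries. These regions were picked by their H3WT signal, and the same count over all regions was not made. The counts therefore cannot tell whether the other mutants shared a change.

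The region next to the Hoxc cluster behaved otherwise. At chr15:102838901-102870900, 50.2 kb from Hoxc13, scaled signal was 2.36 and 1.94 in H3WT and 0.22 and 0.56 in H3R8C, and all 6 other mutant lists, at 0.66 to 5.22, lay above both H3R8C libraries. The H3K27me3 lists covered 30.0% and 22.7% of it in H3WT and 57.0% and 61.4% in H3R8C.

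Of the 7 higher regions, chr16:86225751-86293150 carried the most signal, at 6.37 and 7.33 in H3WT and 14.4 and 25.9 in H3R8C. It lies in a gene-poor stretch 324 kb from Adamts5, an aggrecan-cleaving protease. The other mutants had 1.27 to 14.3, below H3R8C on this scaling. The highest, H3R17C replicates 1 and 2 at 14.28, all but met H3R8C replicates 1 and 2 at 14.35. At the start of Ehbp1, an endocytic adaptor gene, signal was 1.27 and 0.71 in H3WT and 3.04 and 4.60 in H3R8C, and here too the other mutants, at 0 to 2.43, lay below. Near Cbr2, Myh9, Prpsap1 and Btbd35f6, H3WT replicates 1 and 2 had 0.44 to 1.88 and H3WT replicate 3 had 2.03 to 5.22, so the H3WT libraries lay well apart.

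**Figure D5:**
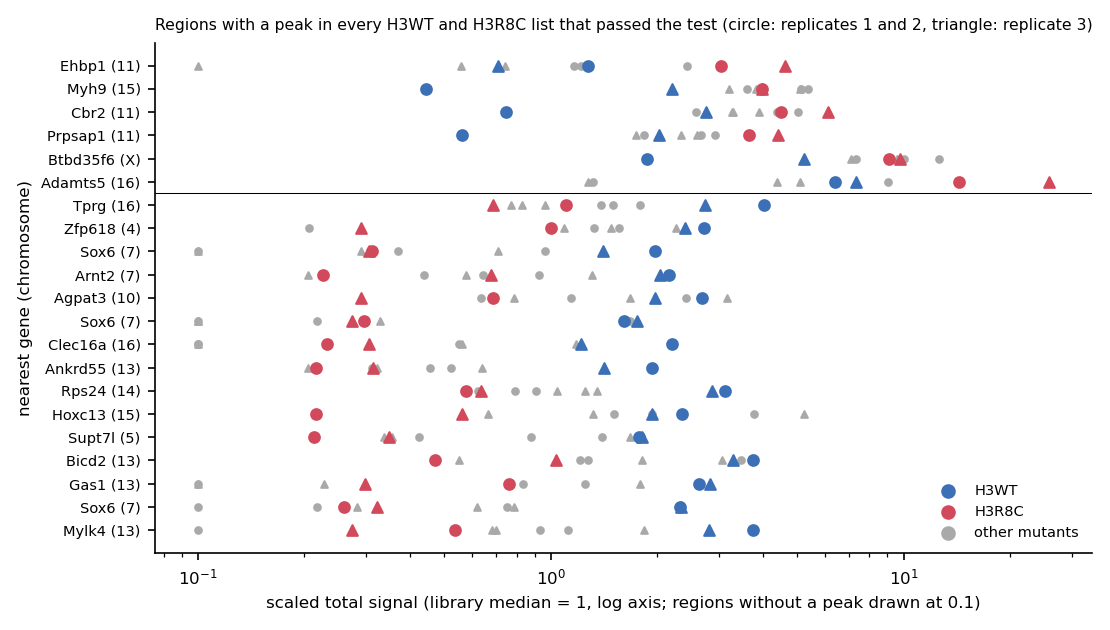
Scaled total signal (horizontal axis, log scale, library median 1) at 15 of the lower (below the line) and 6 of the higher regions (above it) that passed the test where every H3WT and H3R8C library had a peak, each named by its nearest gene with the chromosome in brackets. H3WT is blue, H3R8C red and the other mutants grey, and a list with no peak is drawn at 0.1. At Mylk4 H3WT lies at 2.81 and 3.75 and H3R8C at 0.27 and 0.53, with no overlap in any row.

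H3R8C was also tested directly against the other mutants, in a comparison added after the data were seen. Over 3215 regions with a peak in all 10 anti-HA lists, 4 were lower and 14 higher in H3R8C than in the mean of H3R2C, H3R17C and H3R26C (0.56% called; limma over 5 genotypes, adjusted p under 0.05). Scaled here over regions shared by all 10 lists, the smallest p was in the chromosome 16 stretch beside Adamts5. There 4 regions passed at 15.7 to 324 kb from the gene, with a log2 change of 1.87 at chr16:86225751-86293150. On this scale H3R17C replicates 1 and 2 had 9.44 at that region, above H3R8C replicates 1 and 2 at 8.11. On the lower side was the flank of Hoxc13, at -1.86, where H3R2C had 4.46 and 6.34 and H3R8C 0.42 and 0.30. H3R17C, at 1 and 0.62, and H3R26C, at 2.64 and 0.97, lay nearer to H3R8C there. Other higher regions lay 49.9 kb from Bmp4, a bone morphogenetic protein gene, 66.9 kb from Col5a2, a fibrillar collagen gene, and at Serpinb6b and Serpinb9. Near Bmp4 H3R8C had 4.57 and 7.14, H3R2C 0.68 and 1.42, H3R17C 3.99 and 0.52 and H3R26C 3.76 and 2.05. Near Col5a2 H3R8C had 1.97 and 4.09 and H3WT 2.02 and 1.58. There H3R2C had 0.29 and 0.24, H3R17C 1.82 and 0.44 and H3R26C 1.75 and 1.88. In both, H3R2C and H3R17C replicate 3 lay furthest below H3R8C. At the Serpinb genes, which encode serine protease inhibitors, H3R2C had 0.57 and 0.26, beside 4.52 and 6.07 in H3R8C and 3.73 and 4.38 in H3WT. H3R17C had 2.61 and 2.51 there and H3R26C 4.06 and 2.82, so H3R2C lay furthest from H3R8C. Against H3WT the same fit gave an adjusted p of 0.224 at chr16:86225751-86293150 and 0.0593 at the Hoxc13 flank (limma). No gene passed of 2529 with a peak in all 10 lists, with 287 at an unadjusted p under 0.05.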

How the data were processed

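Anti-HA CUT&RUN was done on C3H 10T1/2 cells expressing H3WT or H3R8C, with 3 labelled replicates each. Per the study's methods, the authors aligned single-end reads to mm10 with Rsubread and called peaks per sample with SEACR 1.3 (stringent, normalised mode). The deposited lists hold each peak's position, total signal (summed coverage) and maximum signal, neither scaled to a common depth, and the interval of that maximum. The lists hold no read depth, and the read totals stated by the study were not used. Lists with identical values were counted once.

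Genes and transcript starts were taken from GENCODE vM21 and sequence from RefSeq GRCm38.p6. Shares and covered length were computed per list (Python 3.11.15, pandas 2.3.3, numpy 2.4.6) and compared by two-sided exact permutation tests. Total signal over protein-coding genes and over merged peaks was tested with limma 3.58.1 in R 4.3.3 (pseudocount 0.25, eBayes with trend, Benjamini-Hochberg, threshold 0.05), after a step tested on simulated data. Peak lists are no counts of reads, so no count model was used. A correlation of the deviations of same-numbered libraries of 0.0294 over genes and 0.0699 over regions gave no pairing.

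Named genes were the 3 members with most signal of each gene list, the 5 genes and 3 regions with the smallest adjusted p in each direction, the 5 strongest regions, and the 8 genes per genotype with the highest lower peak signal among those recurrent in 1 genotype (4 more over top peaks), from which the text draws. The members, gene lists and tests were chosen with earlier results of these data known. Alternatives changed the peak threshold, the position of a peak, start sites, overlap, scaling, pseudocount, spread, replicates and features. Anti-H3K27me3 lists were used for position only, and IgG and anti-H3K4me3 lists were not analysed here. A pair of the regions that passed the test is not reported here by name.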

Additional observations from a re-analysis of the deposited data

How the results depend on the processing

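Differences are H3R8C minus H3WT. A share or length was taken as kept where its sign was, which says nothing of its size, and a count where it was within 1.5 times. By this rule 120 of 181 values under an alternative were kept, 56 moved and 5 changed direction, and of the share and length comparisons 80 of 85 kept their sign. By the position of the maximum the start-site share kept its sign but went from -18.3 to -0.671 points over all peaks and from -18.5 to -0.873 over top peaks. By the position of the maximum the gene-body share turned to -3.63 points over all peaks and -4.22 over top peaks, and the start-site share against the other mutants to -1.27. Leaving out each library in turn gave -28.3 to -8.31 for the start-site share (top peaks -24.9 to -12.2), 1.02 to 13.3 for the gene-body share (3.02 to 10.4), 7.28 to 15.0 for the intergenic share (8.70 to 14.9), -1.004 to -0.607 for the autosome share (-0.538 to -0.127), -142 to -62.9 Mb for covered length, and -2.10 to 2.38 for the start-site share against the other mutants (-4.28 to 4.13). Lower and higher genes numbered 1293 and 42 when H3WT replicates 1 and 2 were dropped, 1136 and 82 for H3WT replicate 3, 11 and 849 for H3R8C replicates 1 and 2, and 9 and 1057 for H3R8C replicate 3. In that order lower regions numbered 10473, 4293, 111 and 67 and higher regions 164, 2664, 12876 and 14537. Genes recurrent in H3WT alone numbered 1477, 1796, 1420 and 900 (top peaks 1266, 3183, 1509 and 1048), and those recurrent in H3R8C alone 248, 398, 444 and 718 (67, 60, 104 and 179). In all of these gene and region counts a peak in the lone library sufficed, so more features entered and their direction follows in part from that filter.

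Where 0 genes passed either way, maximum signal gave 459 lower and 288 higher, all 5 genotypes 36 and 15, and all 3 labelled replicates, which count identical lists again, 505 and 732. Where 1282 regions fell and 2193 rose, all 5 genotypes gave 520 and 878, top peaks 1646 and 513, regions held by every library 16 and 7, and unscaled signal, no trend and bins of 10 kb 0 and 0. The share of calls that were lower went from 36.9% to 76.2% with top peaks and 69.6% with regions held by every library. Genes recurrent in H3WT alone (635, top peaks 899) became 1796 and 3183 by a majority of labelled replicates and, in a setting chosen after seeing the data, 93 and 140 by the maximum within the window. Genes recurrent in H3R8C alone (127, top peaks 18) became 69 and 10 among the stronger peaks (the upper 50%), 718 and 179 by majority and 410 and 120 by the maximum. The causes were not tested beyond what each construction fixes.

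With the replicate number as a block, 0 genes were lower and 37 higher, and 1459 regions were lower and 2768 higher; with 2 pairs the libraries share only a number. The lists hold no read counts, the study's read totals were not used, and what depth limits was not tested, while 2 libraries a genotype cannot take a permutation p below 0.333.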

Other observations

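Regions that fell and rose in H3R8C among those held by every library also differed in sequence, a description of regions chosen for their change. The 16 lower regions were repeat-masked over a median of 17.3% (12.8% to 37.2%) and the 7 higher ones over 36.8% (23.4% to 47.6%), while median GC content was 45.8% and 47.3%. The most masked of all was the X chromosome region 14.3 kb from Btbd35f6, a member of a multicopy family on that chromosome, where scaled signal was 1.88 and 5.22 in H3WT and 9.11 and 9.80 in H3R8C. There the anti-H3K27me3 lists of H3R8C covered 25.7% and 6.91% and those of H3WT 0%. Over the X chromosome the 114 regions held by every library had a median log2 change of 0.49, and 22.8% of them were lower.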
